A study of Mus musculus with 24 samples.

Results

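The comparison set wild-type (WT) testes against WT liver, with no knockout library on either side, and asks how far the RNA of these organs differs in normal animals. The members were chosen from the labels by genotype and tissue: 4 libraries of testes and 4 of liver, 8 of the 24 libraries in the series. Among the 55450 genes of the deposited table, 19485 reached a CPM (counts scaled to the library total) of 1 in at least 4 of these 8 libraries and were tested. The series asks what follows from loss of Thumpd1, the adaptor protein for acetylation of transfer RNA (tRNA), in cerebellum, liver and testes, and the WT mice used here are its controls. The mice were untreated animals on a C57/BL6 background aged 6 to 12 weeks, of either sex where the organ allows, and controls were littermates matched for age. Each library came from a piece of whole organ frozen in RNAlater, so every value is an average over all cells of that organ, and fewer cells of a type and less RNA per cell cannot be told apart. Ribosomal RNA was depleted and the total RNA kit keeps strand, but the strand setting used in counting was not given in the sources used here, so values of genes that overlap another gene on the opposite strand are uncertain. That overlap is stated where such a list member is described, and it also holds for Csf1r, Foxo1, H1f0, Hspd1, Pklr and Tspo.

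Liver is built mostly of hepatocytes, which make the proteins of blood plasma, form bile acids and urea, and hold and release glucose. Seminiferous tubules of the adult testis hold germ cells at every step from stem cell through meiosis to the elongated spermatid, supported by Sertoli cells, with hormone-producing Leydig cells between the tubules. Male germ cells are known for transcribing an unusually broad part of the genome, for testis-specific copies of many widely used genes, and for silencing of the X chromosome during meiosis.

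Both labels were borne out by defining genes. Alb, the main plasma protein of liver, stood at 55122, 54046, 54099 and 48058 CPM in the 4 liver libraries and at 0.0436, 0, 0.024 and 0.113 CPM in the 4 testes libraries. Prm1, a protamine that packs sperm DNA, stood at 1959, 1977, 1979 and 1952 CPM in testes and had no count in any liver library. These CPM values, and the levels of genes below, were scaled by the trimmed mean of M-values (TMM) computed on the 8 libraries, while limits of 1 CPM, as in counts of genes at or above it, refer to CPM of the library total alone. The plot of defining genes shows the same split for the other 7 genes drawn, with every library of the labelled tissue above every library of the other.

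**Figure D1:**
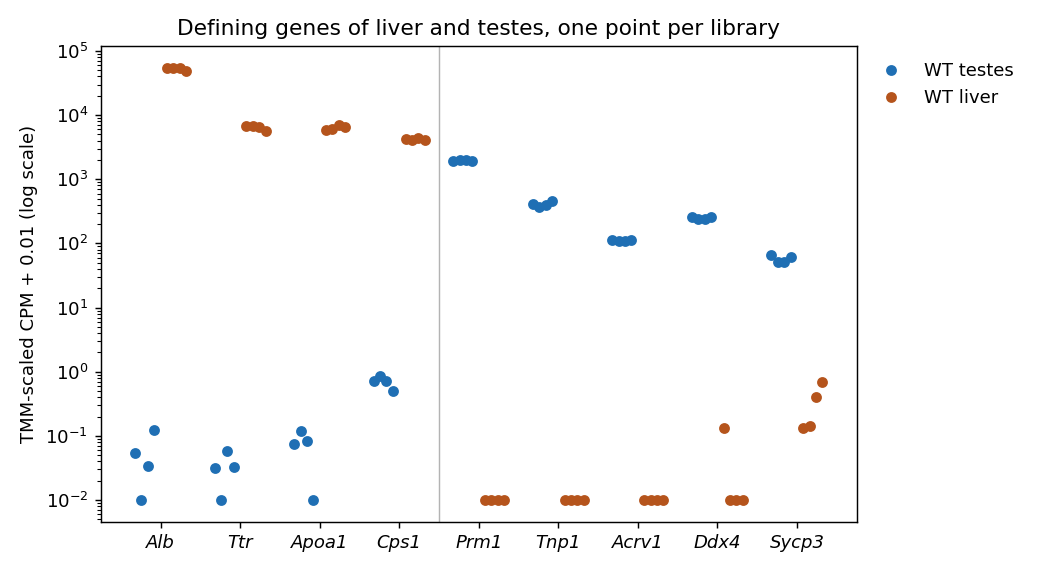
TMM-scaled CPM plus 0.01 on a log axis for 4 genes of liver and 5 of testes, with a point for each library (blue, WT testes; brown, WT liver). Points on the lowest row are libraries with no count, as for Prm1, Tnp1 and Acrv1 in all 4 liver libraries.

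To show what lies in front of some of these genes, the 110 bases upstream of the transcription start are printed for 3 plasma protein genes, 1 gene of sperm-egg fusion and 3 genes of spermatid chromatin and head, from RefSeq on GRCm38.p6. The windows of 300 bases around each start (250 before, 50 after) were searched on both strands for GTTAATNAT, a stretch known from promoters of liver genes, for TGACGTCA, the cyclic AMP response element bound by the spermatid factor CREM, and for TATAAA, the TATA box. Capitals mark the match. Alb (chr5:90460760-90460869, plus strand), Fga (chr3:83026043-83026152, plus strand) and Gc (chr5:89457899-89458008, minus strand) hold the GTTAATNAT letters.
Alb: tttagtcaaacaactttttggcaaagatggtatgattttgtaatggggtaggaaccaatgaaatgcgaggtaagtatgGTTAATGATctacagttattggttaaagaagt
Fga: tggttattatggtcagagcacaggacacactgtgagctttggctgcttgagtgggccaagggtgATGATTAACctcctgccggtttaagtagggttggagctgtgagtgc
Gc: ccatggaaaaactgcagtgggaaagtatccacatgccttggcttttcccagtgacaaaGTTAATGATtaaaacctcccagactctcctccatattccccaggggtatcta
Izumo1 (chr7:45621701-45621810, plus strand), whose product is needed for sperm to fuse with the egg, and Ccin (chr4:43983394-43983503, plus strand), which encodes calicin of the sperm head, hold the cyclic AMP response element.
Izumo1: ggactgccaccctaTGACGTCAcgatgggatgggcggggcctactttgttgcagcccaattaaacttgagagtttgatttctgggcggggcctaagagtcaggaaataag
Ccin: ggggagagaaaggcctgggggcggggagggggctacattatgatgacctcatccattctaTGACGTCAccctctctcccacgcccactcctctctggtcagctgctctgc
Prm2 (chr16:10792106-10792215, minus strand) holds a TATA box read on the other strand, and Prm1 (chr16:10796824-10796933, minus strand) holds none of the motifs in this window.
Prm2: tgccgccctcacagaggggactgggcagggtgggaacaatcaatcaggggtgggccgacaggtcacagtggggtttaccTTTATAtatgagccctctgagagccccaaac
Prm1: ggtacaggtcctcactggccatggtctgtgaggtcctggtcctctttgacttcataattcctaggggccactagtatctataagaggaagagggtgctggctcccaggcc

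GTTAATNAT lay in 4 of the 27 plasma protein genes with a promoter in the RefSeq table (14.8%), in 1 of the 23 round spermatid and acrosome genes with one (4.35%), in none of the 25 such genes of the elongating spermatid list, in 1.59% of genes over 2-fold higher in liver, in 0.652% of those over 2-fold higher in testes, in 0.764% of all genes tested and in 0.94% of all 27025 promoters. TGACGTCA lay in 1 of those 25 genes (4%), in 1 of the 23 round spermatid genes (4.35%), in no plasma protein gene, in 2.91% of genes over 2-fold higher in testes, in 2.58% of those higher in liver, in 3.11% of all genes tested and in 2.03% of all promoters. TATAAA lay in 9 of the 27 plasma protein genes (33.3%), in 3 of the 25 elongating spermatid genes (12%), in 2 of the 23 round spermatid genes (8.7%), in 9.99% of all genes tested and in 15.7% of all promoters. It lay in 11.3% of genes over 2-fold higher in liver and in 11% of those over 2-fold higher in testes. A match is a description of these letters and not a bound site. Fga, a chain of fibrinogen, stood at 3635 to 4391 CPM in liver and at most 0.0882 in testes, and Gc, the vitamin D binding protein, was at least 55696-fold higher in liver. Izumo1 stood at 37.7 to 40 CPM in testes and at most 0.512 in liver (7.67 ± 0.631), and Ccin was at least 1105-fold higher in testes. The genes shown were chosen after their values and motifs were seen.

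Libraries of the organs differed in make-up as well as in single genes. Total counts were alike, 29913402 to 32220670 in testes and 26992675 to 32251737 in liver. Genes at or above 1 CPM numbered 19033 ± 68.9 (SD, n = 4) in testes and 12636 ± 15.6 in liver. The 10 most abundant genes held 6.36% ± 0.339 of counts in testes and 30.3% ± 5.26 in liver. It took 1157, 1111, 1100 and 1106 genes to reach 50% of counts in the testes libraries against 131, 120, 91 and 56 in the liver libraries. Each of these 3 measures separated the tissues without overlap, with an exact two-sided permutation p of 0.0286, the smallest that 4 against 4 can give. Part of the liver share was structural RNA: 6 abundant noncoding RNAs, among them the signal recognition particle RNAs Rn7s1 and Rn7s2, held 17.5% to 31% of liver counts and 4.56% to 5.52% of testes counts. Without those 6 genes the 10 largest held 14.4% of counts in liver and 2.88% in testes, and 50% of counts took 290 to 317 genes in liver and 1236 to 1281 in testes, still with no overlap. In the plot of cumulative counts, the 100 largest genes held 16.4% to 17.4% of counts in the testes libraries, 47.3% to 51% in liver replicates 1 to 3 and 55.2% in liver replicate 4.

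**Figure D2:**
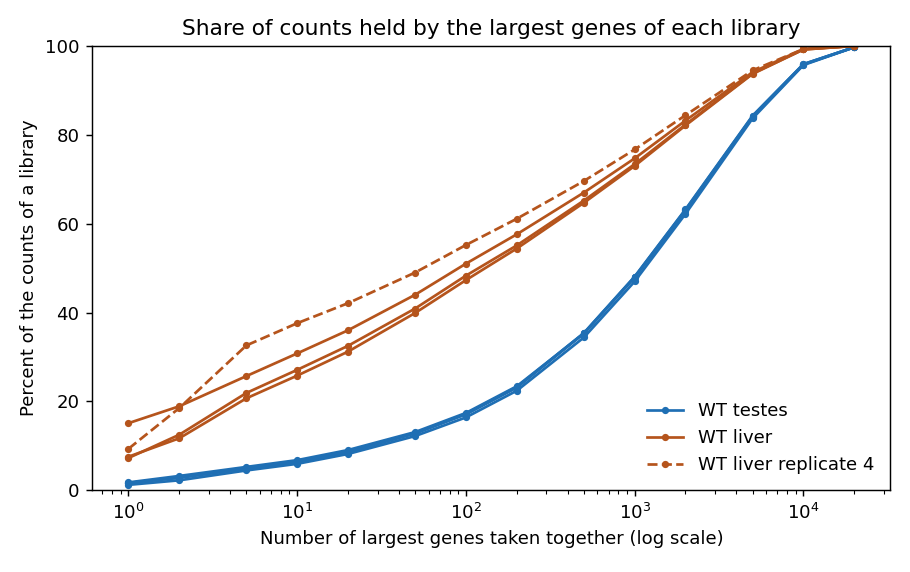
Percent of a library's counts held by its largest genes, against the number of genes summed (log axis), with a line for each library. The 4 testes lines (blue) lie on top of each other and below the liver lines (brown), and liver replicate 4 (dashed) lies highest from 5 genes on, with 37.6% of counts in its 10 largest genes.

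Libraries of a tissue were close to each other, and 3 stood apart in single genes or sums. Pearson correlations of log2 CPM across genes were 0.995 to 0.998 within testes, 0.992 to 0.997 within liver and 0.275 to 0.296 between the tissues, and the median SD of a gene among replicates was 0.0907 in testes and 0.117 in liver on the log2 scale. Testes replicate 1 was farthest from the others of its tissue in the number of genes at 1 CPM and in summed histone variants and translation factors. Testes replicate 2 held RNA of genes known from the epididymis: Crisp1 stood at 67.6 CPM there against at most 0.288 CPM in the other 3 testes libraries, and Spink8 at 8.05 against at most 0.203. Liver replicate 4 held 9.33% of its counts in Gm42418 (at most 1.16% in the other 3) and 8477 CPM of Lars2 (160, 373 and 103 in the others). The same liver library also held Cyp11a1 at 5.17 CPM (at most 0.247 in the other 3), Lhcgr at 1.48 (no count in the others) and Xist at 3.98 (at most 0.165). The Y-linked gene Ddx3y stood at 29.7 to 36.2 CPM in all 4 liver libraries, liver replicate 4 included. Liver replicates 1 and 2 differed from 3 and 4 in several genes, with Cebpb at 208, 209, 130 and 150 CPM. The chi-square per gene between libraries was 8.46 for liver replicates 1 and 2 and 83.8 to 313 for the other liver pairs. In testes it ran from 2.23 (replicates 3 and 4) to 11.4 (replicates 1 and 2), so the replicates of a tissue were not equally far apart. The fit across all genes was repeated without each library in turn, with the filter then at 1 CPM in at least 3 libraries, so that more genes were tested. Without testes replicate 2, 11079 of 19737 genes were higher in testes and 7166 in liver, and without liver replicate 4 the counts were 11458 and 7205 of 19982, against 11016 and 7157 of 19485 with all 8 libraries. The labels number the replicates and do not say from which animal each came, so p-values measure the spread between these libraries.

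Across all genes, limma-voom called 18173 of 19485 genes different at an adjusted p under 0.05, which is 93.3%. Of the genes tested, 56.5% (11016) were higher in testes and 36.7% (7157) were higher in liver. Because nearly every gene passed, a stricter test was used beside it, limma's test against a difference of 2-fold. It called 8754 genes higher in testes (44.9%) and 4848 higher in liver (24.9%), so that 64.4% of the genes past it were higher in testes. Among called genes the median absolute log2 difference was 2.82. For 17853 of the genes tested (91.6%) the libraries of the tissues did not overlap. Remarks on overlap of single genes stand against that share. The split moved with the scaling: the median log2 difference (testes minus liver) of all genes was 0.83 with TMM, 0.94 with relative log expression, 1.81 with library size alone and -0.06 after quantile normalization, and the share of over-2-fold genes that were higher in testes was 64.4%, 65.9%, 78% and 47.9% in that order. Lists are therefore given by their counts and medians, to be read against 44.9% and 24.9% of all genes and against the median of 0.83. Below, a log2 difference is testes minus liver with its SE from limma (n = 4 for each tissue), and the adjusted p beside it is that of the 2-fold test. Where the lower tissue had at most 3 counts in every library, the fitted difference depends on the small count added in the fit, and a lower bound against 3 counts in each library is given in its place.

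**Figure D3:**
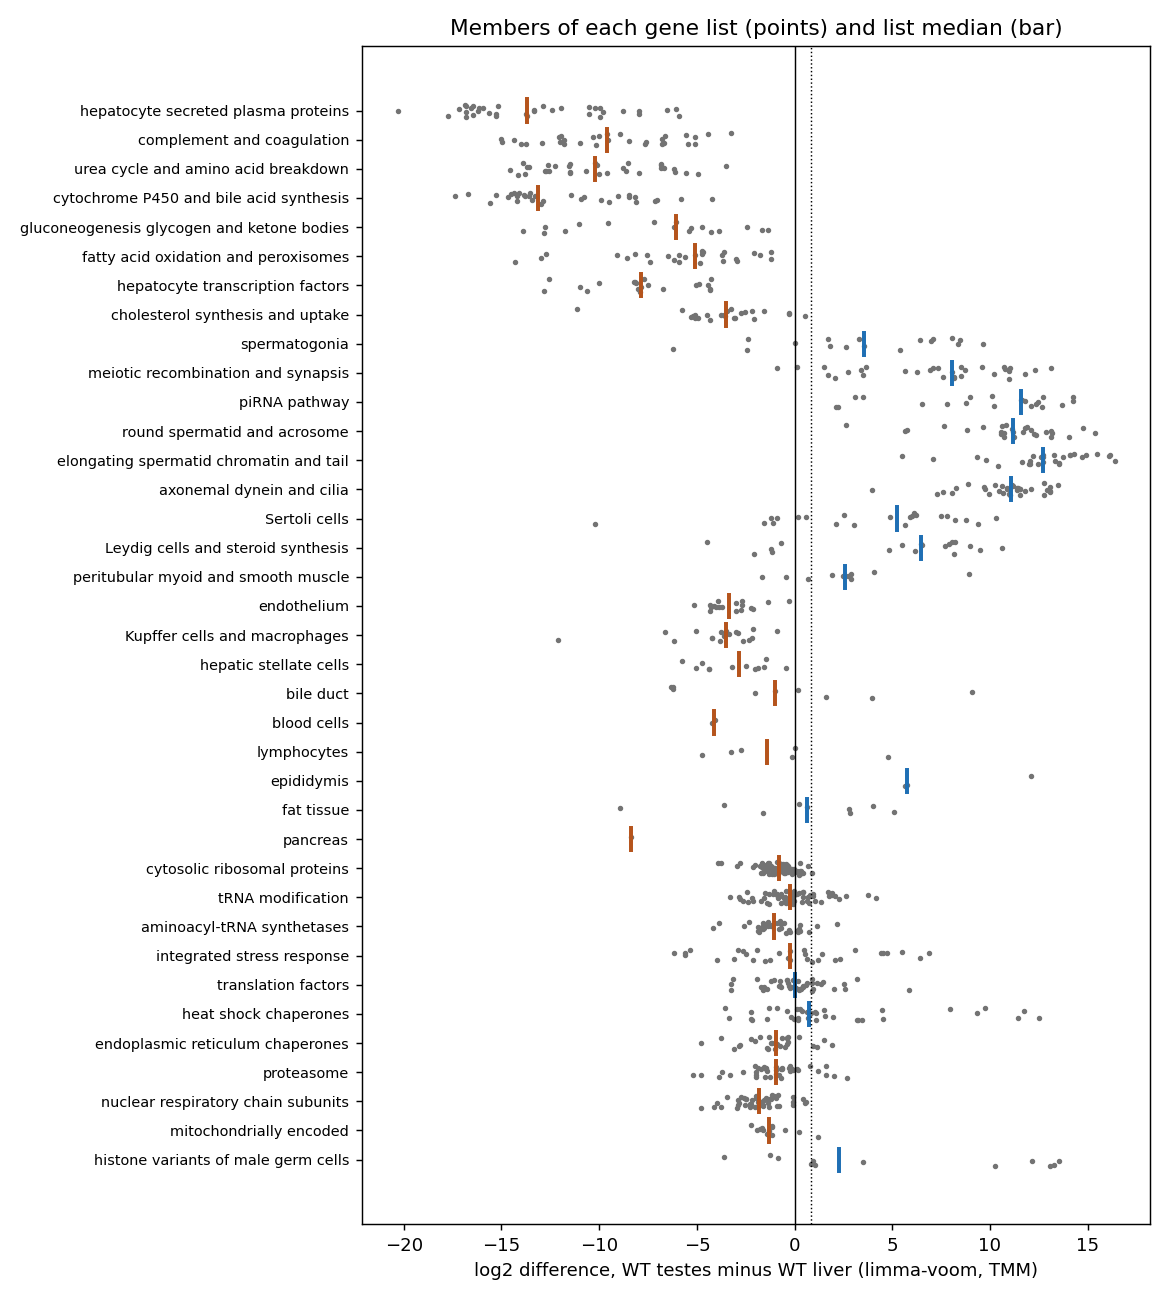
Log2 difference (WT testes minus WT liver, limma-voom with TMM) of each tested member (grey points) of 37 gene lists, with the list median as a bar (blue above 0, brown below). The dotted line is the median of all genes, 0.83, and lists of liver function lie to its left and lists of germ cell steps to its right.

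Genes of hepatocyte function were higher in liver, for every tested member in 7 of the 8 lists of this kind. All 36 genes of secreted plasma proteins passed the 2-fold test in liver, with a median log2 difference of -13.71 (-13.53 with the 9 members near 0 in testes set at their bound). Ttr, the carrier of thyroid hormone and retinol, stood at 6773, 6866, 6480 and 5620 CPM in liver and at 0 to 0.048 CPM in testes, at least 94881-fold higher in liver. Apoa1, the main protein of high density lipoprotein, stood at 5808, 5968, 7115 and 6596 CPM in liver and at most 0.11 CPM in testes. Apob, the protein of low density lipoprotein, had at least 3 counts in every library and stood at 13941, 13526, 12366 and 11620 CPM in liver against 0.0871, 0.154, 0.144 and 0.158 in testes, a log2 difference of -16.45 ± 0.25 (adjusted p 1.45e-11), the largest in the liver direction among genes so counted. Apoe was not as restricted: it stood at 19160, 20096, 17924 and 17677 CPM in liver and at 44.5, 48, 38.6 and 40.3 in testes (-8.77 ± 0.0869). No library of either tissue overlapped the other for these 4 genes. Scd1, which makes monounsaturated fatty acids and is no member of this list, was among the 8 most abundant genes of liver at 16938 to 19856 CPM against 47.3 to 63.9 in testes (-8.38 ± 0.122).

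Complement and coagulation genes behaved alike, with all 31 tested members past the 2-fold test in liver and a median of -9.59. C3, the central complement protein, stood at 10243, 10099, 9776 and 9113 CPM in liver and at 19.3, 25.9, 16 and 19.1 in testes (-8.95 ± 0.116, adjusted p 6.71e-12). F2, which encodes prothrombin, stood at 2326, 2355, 2290 and 2110 CPM in liver and below 0.22 in each testes library (-14.35 ± 0.252). Plasminogen (Plg) and antithrombin (Serpinc1) went the same way at -15.01 and -9.59, both with a gene on the other strand.

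Urea cycle and amino acid breakdown gave 33 of 33 members higher in liver with a median of -10.23. Cps1, which starts the urea cycle, stood at 4241, 4090, 4451 and 4136 CPM in liver and at 0.497 to 0.86 in testes (-12.58 ± 0.161). Otc, the next enzyme, was at least 3954-fold higher in liver. Ass1, which joins citrulline and aspartate, was the least liver-bound of the genes named here: 3853, 3836, 4064 and 3718 CPM in liver and 33.7, 29.2, 36.3 and 34.8 in testes (-6.86 ± 0.0642). The tissues did not overlap in any of them.

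Cytochrome P450 and bile acid genes had 32 of 32 members higher in liver, with a median of -13.14, or -11.54 with 14 members at their bound. Cyp7a1, the rate-limiting enzyme of bile acid synthesis, stood at 78.1, 79.6, 120 and 115 CPM in liver and at 0.0221 to 0.305 in testes (-9.93 ± 0.538). Its liver values fell into a lower and a higher pair, both far above testes. Cyp8b1, which sets the cholic acid share of bile, was at least 15953-fold higher in liver. Cyp2e1, which oxidizes ethanol and small solvents, stood at 5254, 5191, 5015 and 4266 CPM against 2.56 to 3.17 (-10.76 ± 0.231). Cyp27a1, a mitochondrial sterol hydroxylase used in many tissues, differed least of the 4, with 777, 757, 755 and 679 CPM against 5.36 to 5.78 (-7.06 ± 0.0935).

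Sugar and fat metabolism showed a wider span. All 17 tested genes of gluconeogenesis, glycogen and ketone bodies were higher in liver and 16 of them over 2-fold, with a median of -6.05. G6pc, the last step of glucose release, stood at 397, 387, 334 and 317 CPM in liver and at most 0.132 in testes (-12.84 ± 0.536). Fbp1, which removes a phosphate from fructose 1,6-bisphosphate, differed little by comparison: 878, 866, 909 and 888 CPM in liver and 274, 270, 279 and 283 in testes (-1.68 ± 0.0283, adjusted p 7.66e-09). Fatty acid oxidation and peroxisome genes gave 27 of 27 over 2-fold in liver with a median of -5.10. Cpt1a, which admits fatty acids to mitochondria, stood at 409, 388, 420 and 402 CPM against 35.6, 33.6, 32.8 and 31.2 (-3.60 ± 0.049). Acadm of medium-chain oxidation stood at 264 to 299 CPM against 10.1 to 11.1 (-4.73 ± 0.0727), and both kept the tissues apart.

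Transcription factors of hepatocytes numbered 20, and all 20 were over 2-fold higher in liver with a median of -7.89. Hnf4a, a nuclear receptor central to hepatocyte identity, stood at 1058, 1070, 899 and 867 CPM in liver and at 0.0678 to 0.216 in testes (-12.58 ± 0.292). Foxa2, a pioneer factor, stood at 74.1, 80.3, 62.4 and 56.9 CPM against at most 0.0871, and the bile acid receptor Nr1h4 at 98.7 to 115 against at most 0.131.

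Cholesterol synthesis and uptake was the exception among liver lists: 23 of 24 members were higher in liver, 21 over 2-fold, with a median of -3.51. Sqle, which oxidizes squalene, was close in the tissues, at 67.3 to 69.4 CPM in testes and 78.2, 75.1, 96.7 and 88.5 in liver (-0.29 ± 0.075), not past the 2-fold test and at 0.69 with library size alone. Fdft1, which makes squalene and was singled out after its values were seen, was the 1 member higher in testes, at 242 CPM against 167 (0.54), and it overlaps a gene on the other strand.

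Most tested genes of the germ line lists were higher in testes, with list medians of 3.55 for spermatogonia, 8.06 for meiosis, 11.20 for round spermatids and 12.73 for elongating spermatids. In the 4 lists of the piRNA pathway, round spermatids, elongating spermatids and the axoneme every tested member passed the 2-fold test in testes. The lists of spermatogonia and meiosis held exceptions, given below. Spermatid chromatin and tail genes had the largest differences. All 29 were over 2-fold higher in testes, with a median of 12.73, or 10.93 with the 23 members that had at most 3 counts in each liver library set at their bound. Prm2, the other protamine, stood at 2054, 2306, 2214 and 2338 CPM in testes and at 0 to 0.0568 in liver, at least 15986-fold higher, next to at least 14113-fold for Prm1. Tnp2, a transition protein that replaces histones before the protamines, stood at 1526, 1633, 1686 and 1679 CPM in testes with no count in liver, at least 11701-fold higher. Odf1, of the outer dense fibres of the sperm tail, was at least 4446-fold higher with 562, 636, 651 and 629 CPM. Odf2, also named for these fibres but part of the centriole in many cells, stood at 1700, 1881, 1777 and 1869 CPM in testes and at 12, 11.7, 14.9 and 14.9 in liver (7.09 ± 0.107), with a gene on the other strand. The summed CPM of the list was 15608 to 16851 in testes and 22 to 25.4 in liver.

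Round spermatid and acrosome genes gave 28 of 28 over 2-fold in testes with a median of 11.20 (9.31 with 22 at their bound). Acrv1, of the acrosomal matrix, stood at 113, 110, 108 and 113 CPM in testes with no count in liver, at least 796-fold higher. Acr, the acrosomal protease acrosin, was at least 816-fold higher at 105 to 119 CPM. Crem, the spermatid activator named above, was the least restricted: 102, 90.4, 96 and 98 CPM in testes and 20.4, 16.4, 12.8 and 12.2 in liver (2.65 ± 0.134, adjusted p 1.16e-06), with a gene on the other strand.

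Motile cilia and sperm tails share the axoneme, and 34 of 34 tested genes of axonemal dyneins and cilia were over 2-fold higher in testes, with a median of 11.08 (9.63 with 20 at their bound). Dnah17, a heavy chain of outer arm dynein in sperm, stood at 629, 664, 691 and 691 CPM in testes and at 0.124, 0.35, 0.176 and 0.341 in liver (11.36 ± 0.23), the largest difference in the testes direction among genes with at least 3 counts in every library. Dnah8, another sperm dynein heavy chain, had the highest mean CPM among protein-coding genes called in testes, at 2217, 2126, 2301 and 2296 CPM against 0.795 to 1.22 (11.11 ± 0.144). Prm2 was above it in testes replicates 2 and 4, at 2306 and 2338 CPM. Dnah17 and Dnah8 are long and overlap a gene on the other strand, so their counts do not rank them against Prm1 and Prm2 per length.

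Genes of the piRNA pathway, which silences transposons in germ cells with small RNAs, gave 21 of 21 over 2-fold in testes with a median of 11.58 (9.20 with 15 at their bound). Piwil1, the Argonaute of pachytene piRNAs, stood at 289, 294, 308 and 317 CPM in testes and had no count in liver, at least 2164-fold higher. Mael was at least 4193-fold higher and Ddx4, the helicase that marks the germ line, at least 1799-fold higher.

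Meiotic recombination and synapsis gave 29 of 31 tested members over 2-fold in testes, with a median of 8.06 (6.05 with 16 at their bound), while 1 member was called higher in liver, not over 2-fold, and 1 was not called. Sycp3, of the lateral element of the synaptonemal complex, stood at 66.3, 52.2, 51.8 and 60.8 CPM in testes and at 0.124, 0.131, 0.397 and 0.682 in liver (7.62 ± 0.396), with a gene on the other strand. Spo11, which makes the double-strand breaks of meiosis, stood at 40 to 42.5 CPM against 0.0437 to 0.284 (8.14 ± 0.307). Stag3, the meiotic cohesin subunit, stood at 349 to 362 CPM against 0.124 to 0.306 (10.74 ± 0.163). The last was Prdm9, which marks recombination sites and was singled out after its values were seen, at 5.03, 5.34, 5.21 and 5.24 CPM in testes and 4.99, 4.81, 4.76 and 4.83 in liver (0.10 ± 0.0818), and its sign changed with the scaling.

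Markers of spermatogonia, the earliest germ cells, went in both directions: 13 of 17 tested were over 2-fold higher in testes and 3 over 2-fold higher in liver, with a median of 3.55. Over the scalings and tools tried that median ran from 1.48 to 4.53, and Dnmt3b, Rhox13 and Eomes changed sign. Dmrt1, a transcription factor of spermatogonia and Sertoli cells, stood at 17.5, 20.2, 18.3 and 17.3 CPM in testes and was without a count in liver, at least 131-fold higher. The receptor kinase Kit, of differentiating spermatogonia and mast cells, stood at 26.8 to 29.6 CPM against 7.87 to 11.4 (1.70 ± 0.105). Gfra1, the GDNF co-receptor used to mark stem cell spermatogonia, went the other way, with 2.24, 2.36, 2.23 and 2.15 CPM in testes and 158, 153, 180 and 181 in liver (-6.21 ± 0.142), and it overlaps a gene on the other strand. Zbtb16, which encodes PLZF of the same cells, stood at 6.12 to 7.82 CPM in testes and 29.2 to 37.1 in liver (-2.37 ± 0.115). Foxo1, a transcription factor of fasting in liver as well as of spermatogonia, was also higher in liver (-2.46). The summed CPM of the list was 182 to 199 in testes and 278 to 308 in liver.

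Histone variants of male germ cells split by kind, with 9 of 12 higher in testes, 6 over 2-fold, and a median of 2.26. Testis-specific Hist1h1t, H1fnt and Hist1h2ba were at least 1679-fold, 1954-fold and 1446-fold higher in testes. H3f3b, a replacement H3 of all cells, stood at 232, 245, 235 and 241 CPM against 115, 115, 110 and 129 (1.03 ± 0.0477), not past the 2-fold test. The linker histone H1f0 of resting cells went the other way at 12 to 12.7 CPM in testes and 141 to 168 in liver (-3.62 ± 0.076), and H2afv followed it at -1.24.

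Markers of the somatic cells of the testis went in both directions. Of 22 tested Sertoli cell genes, 16 were higher in testes (15 over 2-fold) and 5 in liver (2 over 2-fold), with a median of 5.26, or 3.47 with 5 at their bound, and it ran from 2.16 to 6.24 over the scalings and tools. Wt1, a transcription factor of Sertoli cells, stood at 46.6, 47.1, 43.2 and 41.2 CPM in testes and at 0.494 to 1.19 in liver (5.64 ± 0.204). Sox9, which directs Sertoli cell fate and is also found in bile ducts, did not differ past the test at 18.2 to 21.6 CPM in testes and 15.7 to 19.1 in liver (0.19 ± 0.0904). Transferrin (Trf), which Sertoli cells secrete to germ cells, stood at 9.62 to 14.2 CPM in testes and 12983 to 14131 in liver (-10.21 ± 0.0982). Clusterin (Clu), secreted in both organs, stood at 535 to 628 against 1546 to 1762 CPM (-1.56), and 0.03 after quantile normalization.

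Leydig cell and steroid genes gave 13 of 18 over 2-fold in testes and 4 over 2-fold in liver, with a median of 6.48 (5.53 with 5 at their bound). Insl3, the Leydig hormone of testis descent, stood at 358, 446, 403 and 376 CPM in testes and at 0.395, 0.109, 1.22 and 1.14 in liver (9.51 ± 0.505), and lies within Jak3 on the same strand. Cyp17a1, which makes androgen precursors, stood at 171 to 182 CPM in testes against 3.02 to 5.6 in liver (5.51 ± 0.151). Cyp11a1, the first enzyme of steroid synthesis, stood at 59.1, 58.4, 75.7 and 74.2 CPM against 0.247, 0.131, 0 and 5.17 (7.88 ± 1.07), where the last value is that of liver replicate 4. Among those higher in liver were the mitochondrial cholesterol binding protein Tspo at -4.49, ferredoxin Fdx1 at -2.08 and the lipoprotein receptor Scarb1 at -1.20, genes with uses outside steroid synthesis. Peritubular myoid and smooth muscle genes gave 7 of 10 over 2-fold in testes with a median of 2.60, which ran from 1.07 to 3.58 over the scalings and tools, with Cnn1, Des and Lmod1 changing sign. Acta2, smooth muscle actin, stood at 34.9 to 40.3 CPM against 4.16 to 5.57 (2.89 ± 0.119).

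Markers of endothelium, resident macrophages and stellate cells were mostly higher in liver by over 2-fold. All 18 endothelial genes were called higher in liver, 17 over 2-fold, with a median of -3.37, although Vwf changed sign with the scaling. Kdr, the VEGF receptor, stood at 71.9, 69.3, 83.9 and 79.6 CPM in liver and at 4.13 to 4.66 in testes (-4.13 ± 0.109). All 19 tested genes of Kupffer cells and macrophages were higher in liver, 18 over 2-fold, with a median of -3.51, although the mannose receptor Mrc1 changed sign with the scaling. Clec4f, a lectin of mouse Kupffer cells, stood at 90.4, 84.3, 90.6 and 84.4 CPM in liver and at 0 to 0.0226 in testes, at least 1289-fold higher. Csf1r, the receptor that macrophages of all tissues need, differed less at 68.7 to 87 CPM against 6.6 to 7.21 (-3.51 ± 0.0982). Of 12 stellate cell genes 11 were over 2-fold higher in liver, with a median of -2.84, although Des changed sign over the scalings and tools tried. Lrat, which stores retinol as ester, stood at 23.7 to 30 CPM in liver against 6.7 to 7.69 in testes (-1.85 ± 0.0908).

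Markers of other cells that a dissected piece can hold were examined as well. Of 11 bile duct genes 9 were tested, and 4 were over 2-fold higher in liver. Epcam and the chloride channel Cftr were over 2-fold higher in testes instead, Cftr at 43.6, 37.1, 42.2 and 40.2 CPM in testes and at 0, 0.175, 0.265 and 0 in liver, with a gene on the other strand. Blood cell genes were at 10.7 to 11.9 CPM in sum in testes and 174 to 220 in liver, lymphocyte genes at 9.31 to 10.3 and 32.8 to 34.4, and pancreas genes at 1.2 to 1.85 and 14.1 to 17.7, the last almost wholly Cela1. The blood cell sum was mostly Alas2, of heme synthesis, at 9.19 to 10.4 CPM in testes and 209, 200, 171 and 153 in liver, with a gene on the other strand, while the globin Hbb-bs stood at 5.73 ± 3.52 CPM (SD, n = 4) in liver. Of 15 lymphocyte genes 6 were tested, 3 over 2-fold higher in liver and 1 in testes, the T cell receptor subunit Cd3d, at 2.3 to 2.98 CPM against 0.0437 to 0.17. Epididymis genes summed to 106, 182, 106 and 110 CPM in testes and at most 0.176 in liver, and without testes replicate 2 the sum was 108 ± 2.35 CPM (SD, n = 3), mostly Cst8, which germ cells also express. Of 9 fat genes 4 were over 2-fold higher in testes, Adipoq at 4.11 to 4.49 CPM against at most 0.227, and 2 in liver, with a list median of 0.64 that was -1.49 after quantile normalization. Those higher in liver were Car3, a carbonic anhydrase, at 6170, 6120, 5097 and 4476 CPM against 8.32 to 15.2 in testes (-8.94 ± 0.254), and Pparg at 14.5 to 24 against 1.32 to 1.63. The list summed to 4498 to 6225 CPM in liver, almost wholly Car3, and to 29.2 to 43.9 in testes. Cfd, the fat-derived complement factor D, stood at 5.38 to 11.6 CPM in testes and at 12.4, 13.2, 2.03 and 3.01 in liver, so that the tissues overlapped.

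For many widely used genes the genome holds a related copy that germ cells use, and the use of either was read as the ratio of the 2 genes in the same library, which no scaling between libraries can change. In 32 pairs of a testis form and a widely used form, the log2 ratio of counts (0.5 added to each) was higher in testes in 31, with a median difference of 12.27, or 10.01 with the 20 pairs whose testis form had at most 3 counts in each liver library set at that floor. None of the 42 pairs reported, 32 of testis and 10 of liver, overlapped between the tissues, with an exact two-sided permutation p of 0.0286 for each, the smallest that 4 against 4 can give (adjusted over the 42 pairs the value is the same, as all are equal). Of all single genes tested, 91.6% did not overlap either. For the pair of phosphoglycerate kinases, Pgk2 to Pgk1, the log2 ratio was 5.57, 5.58, 5.69 and 5.60 in testes and -13.72, -13.67, -13.62 and -13.23 in liver. Pgk2 stood at 432 to 489 CPM with no count in liver, and Pgk1 stood at 9.02 to 10.1 CPM in testes against 273 to 285 in liver (-4.87 ± 0.053). Per kilobase of exon, Pgk2 was 98.2% of the pair in testes.

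**Figure D4:**
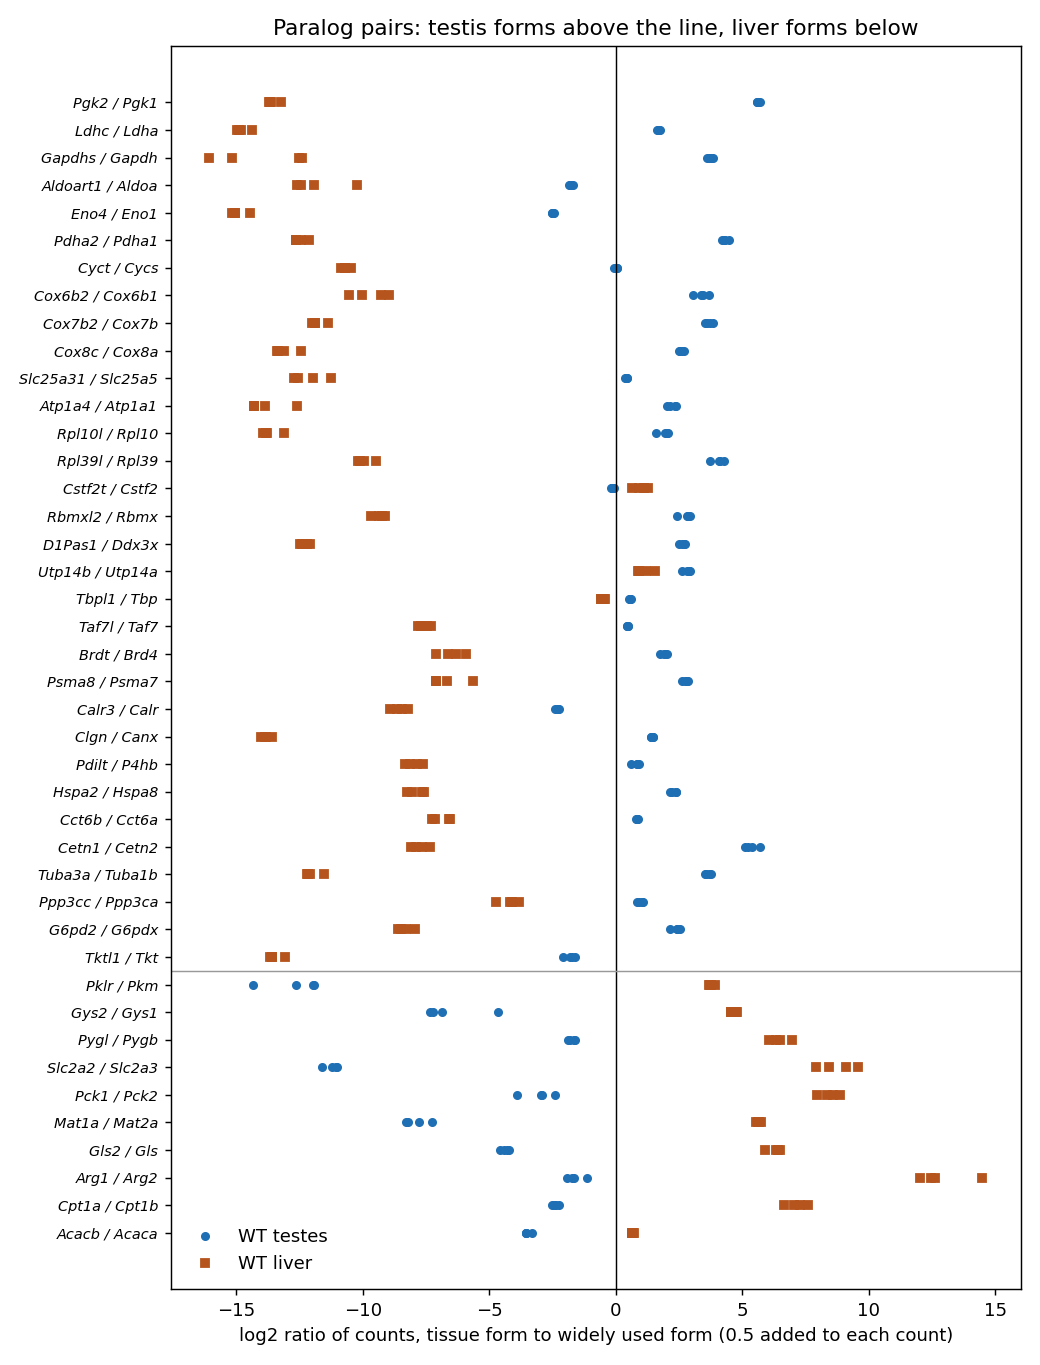
Log2 ratio of counts of the tissue form to the widely used form (0.5 added to each count) for 42 pairs, with a point for each library (blue circles, WT testes; brown squares, WT liver). Testis forms stand above the grey line and lie to the right in testes except for Cstf2t to Cstf2, and the 10 liver forms below it lie to the right in liver.

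Testis forms took over 50% of the pair per kilobase in testes in 27 of 32 pairs. In 2 of these 27, Tbpl1 to Tbp (75.2%) and Cstf2t to Cstf2 (72.5%), the testis form was over 50% of the pair in liver too. In glycolysis, Ldhc was 81.6% of the pair with Ldha, which itself stayed high at 389 to 438 CPM in testes and 615 to 674 in liver, and Gapdhs was 92.5% of the pair with Gapdh. In mitochondria, the pyruvate dehydrogenase subunit Pdha2 was 96% of the pair with Pdha1, and the cytochrome c Cyct was 82.8% of the pair with Cycs. In the ribosome, Rpl10l was 76.6% and Rpl39l 92.3% of their pairs. In the centriole, Cetn1 was 97.6% of the pair with Cetn2. The 5 pairs in which the testis form stayed under 50% were Aldoart1 to Aldoa (20.6%), Eno4 to Eno1 (14.9%), the nucleotide carrier Slc25a31 to Slc25a5 (43.9%), the chaperone Calr3 to Calr (18.3%) and Tktl1 to Tkt (27.2%). The exception in direction, Cstf2t to Cstf2 of RNA cleavage, differed by -1.13: Cstf2t stood at 46.9 to 49.7 CPM in testes and 31.3 to 43.9 in liver, while Cstf2, its X-linked relative, stood at 50.5 to 55.9 and 17.9 to 20.4. In 12 of the 32 pairs the widely used gene lies on the X chromosome, among them Pgk1, Pdha1, Rpl10, Rpl39, Ddx3x and Cetn2. Exact stretches of 50 bases shared between the 2 transcripts, which could let reads be assigned to the wrong copy, were found in 2 of the 32 pairs, over 8.66% of G6pd2 and 4.69% of Aldoart1. Gapdh, Gapdhs, Aldoa, Eno4, Pdha1 and Cstf2 also overlap a gene on the other strand.

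Liver had its own forms. In all 10 such pairs the ratio of the liver form to the other was higher in liver, with a median difference of -11.34 (-11.08 with 3 pairs at their floor), and the liver form was over 50% of the pair per kilobase there. The widest difference was that of the glucose transporters, Slc2a2 at 252 to 278 CPM in liver and 0.271 to 0.408 in testes against Slc2a3 at 0.306 to 1.02 and 787 to 887, a difference of -19.99 in the log2 ratio. The pyruvate kinase Pklr was 92.1% of its pair with Pkm in liver. The smallest difference was -4.17 for Acacb to Acaca of malonyl-CoA synthesis, where Acacb was 63.2% of the pair in liver and 8.73% in testes.

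Genes that every cell uses differed by far less, and here the scaling decided some directions. Of 79 cytosolic ribosomal protein genes 64 were higher in liver (32 over 2-fold) and 8 in testes, with a median of -0.78 that turned to 0.20 with library size alone. Relative to the median of all genes the list lay at -1.61 with TMM, and between -1.61 and -0.58 under the scalings and tools tried. Rplp0, of the ribosomal stalk, stood at 345, 373, 360 and 364 CPM in testes and 401, 413, 385 and 335 in liver (-0.09 ± 0.0612), so that the tissues overlapped, with 0.89 by library size alone and 0.64 after quantile normalization. Rpl10, on the X chromosome, was far below its liver level: 19.1, 24.3, 18.8 and 19 CPM against 329, 320, 310 and 251 (-3.90 ± 0.12, adjusted p 7.25e-09). Rpl39, also X-linked, stood at 4.21 to 6.58 CPM in testes against 20.5 to 24.6 (-2.13 ± 0.128). Both are the genes whose testis copies, Rpl10l and Rpl39l, stood at 72.9 to 78.1 and 81.8 to 87.7 CPM in testes.

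Thumpd1 (chr7:119715093-119720798, minus strand, mm10), the gene whose loss the series studies, stood at 17, 18.7, 17.8 and 18.3 CPM in testes and at 12.9, 13.4, 14.3 and 14.1 in liver. Every testes library was above every liver library, with a log2 difference of 0.39 ± 0.0649 (adjusted p 0.000313 against no difference) that did not pass the 2-fold test and lay below the median of all genes. Nat10, the acetyltransferase that works with it on tRNA, stood at 38.9, 39.8, 39.8 and 41.6 CPM in testes and 37.1, 34.2, 37.9 and 40.2 in liver, with overlap and a difference of 0.11 ± 0.0557 that was not called. The differences of Thumpd1 and Nat10 are smaller than the shift of the all-gene median between scalings, from 0.83 with TMM to 1.81 with library size alone. Thumpd3, a tRNA methyltransferase with the same RNA-binding domain, was the family member that differed most, at 46.9 to 53.1 CPM in testes and 7.04 to 9.45 in liver (2.62 ± 0.115), with a gene on the other strand. Thumpd2 was low in both, at 0.816 to 1.21 CPM in testes and 2.04 to 3.09 in liver (-1.29). Of all 62 tRNA modification genes, 22 were higher in testes (10 over 2-fold) and 31 in liver (13 over 2-fold), with a median of -0.25 that became 0.74 with library size alone. The largest differences toward testes were those of Adat3, of the adenosine deaminase of the wobble base, at 4.19 ± 1.02, and of the methyltransferase Trmt10a at 3.74 ± 0.161, both overlapping another gene.

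Aminoacyl-tRNA synthetases, which load tRNAs, were higher in liver for 28 of 38 (17 over 2-fold) and in testes for 7, with a median of -1.04 (-0.05 with library size alone). Lars, for leucine, stood at 24.7 to 25.9 CPM in testes and 32.8 to 37.7 in liver (-0.46 ± 0.0554, and 0.52 with library size alone). Vars, for valine, was the 1 over 2-fold higher in testes, at 344, 394, 401 and 386 CPM against 83, 83, 87.4 and 87.6 (2.16 ± 0.0642). The summed CPM of the list was 1230 to 1310 in testes and 2058, 2262, 1941 and 10255 in liver, the last in liver replicate 4 through Lars2, and without that library the liver sum was 2087 ± 163 (SD, n = 3).

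The integrated stress response, which slows translation through eIF2alpha and raises amino acid supply through ATF4, was split: 15 of 32 tested genes were higher in each tissue, 10 over 2-fold in testes and 13 in liver, with a median of -0.21 (0.77 with library size alone). Atf4 stood at 25.6, 26.4, 26.3 and 25.4 CPM in testes and at 141, 142, 88.4 and 86.3 in liver (-2.11 ± 0.189). Asns, the asparagine synthetase that ATF4 activates, went the other way with 79.6, 81.1, 84.7 and 85.9 CPM in testes and 3.38, 2.36, 1.1 and 1.19 in liver (5.51 ± 0.257). Toward liver lay the transcription factors Cebpb (-6.19) and Atf5 (-5.61), both with a gene on the other strand, and the pseudokinase Trib3 (-5.59). Eif2ak4, which encodes the kinase GCN2, stood at 9.65 to 11.2 CPM in testes and 14.8 to 19.5 in liver (-0.81, and 0.17 with library size alone). Liver replicates 1 and 2 were above 3 and 4 for Atf4 and Asns and below them for Trib3 (7.87 and 7.39 against 13.9 and 13 CPM), and each liver pair was apart from testes.

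Of 45 translation factors, 21 were higher in testes and 20 in liver, with a median of 0.0068 that lay at -0.82 from that of all genes. Over the scalings and tools tried the list median ran from 0.0066 to 0.98, and 14 of the 45 members changed sign. Eif4e, which binds the cap, was higher in testes at 144 to 152 CPM against 23.7 to 26.2 (2.55 ± 0.0493), with a gene overlapping it, while its inhibitors Eif4ebp1 and Eif4ebp2 were higher in liver at -3.26 and -3.25. Pabpc1, the poly(A)-binding protein, was among the 8 most abundant called protein-coding genes of testes at 1696 to 1849 CPM against 288 to 303 (2.59 ± 0.0383). Of 36 heat shock chaperones, 24 were higher in testes and 10 in liver. The 16 over 2-fold higher in testes stand against 44.9% of all genes, and the list median of 0.75 lay at -0.08 from that of all genes. Hspa2, the chaperone of spermatocytes, stood at 742, 791, 824 and 823 CPM in testes and 2.84 to 3.44 in liver (7.94 ± 0.139), while its widely used relative Hspa8 stood at 159 to 178 against 644 to 867 (-2.22 ± 0.107). Hsp90aa1 was higher in testes as well, at 948 to 1051 CPM against 93.5 to 115 (3.27 ± 0.0694), and mitochondrial Hspd1 was higher in liver at -3.54.

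Endoplasmic reticulum chaperones were higher in liver for 23 of 28 (12 over 2-fold), with a median of -0.96 that became 0.03 with library size alone. Hspa5, the main chaperone of that compartment, stood at 297 to 313 CPM in testes and at 794, 782, 550 and 610 in liver (-1.15 ± 0.116), called but not past the 2-fold test. Proteasome genes gave 29 of 39 higher in liver (18 over 2-fold) and 8 in testes, with a median of -0.96 (0.02 with library size alone). Psmb8, of the immunoproteasome, stood at 0.457 to 0.684 CPM in testes and 13.9 to 17.8 in liver (-4.79 ± 0.161), with a gene on the other strand. Psme4, the activator PA200 known from spermatids, went the other way at 502 to 549 CPM against 117 to 143 (2.02 ± 0.065). Nuclear genes of the respiratory chain were higher in liver for 41 of 47 (35 over 2-fold), with a median of -1.84 that stayed negative under every scaling tried (-1.84 to -0.86). Sdha, of complex II, stood at 78.9 to 82.6 CPM in testes and 452 to 463 in liver (-2.50 ± 0.0306). Of the 13 mitochondrially encoded genes 11 were higher in liver (7 over 2-fold), and their share of all counts was 0.628% to 0.807% in testes and 0.852% to 1.22% in liver.

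**Figure D5:**
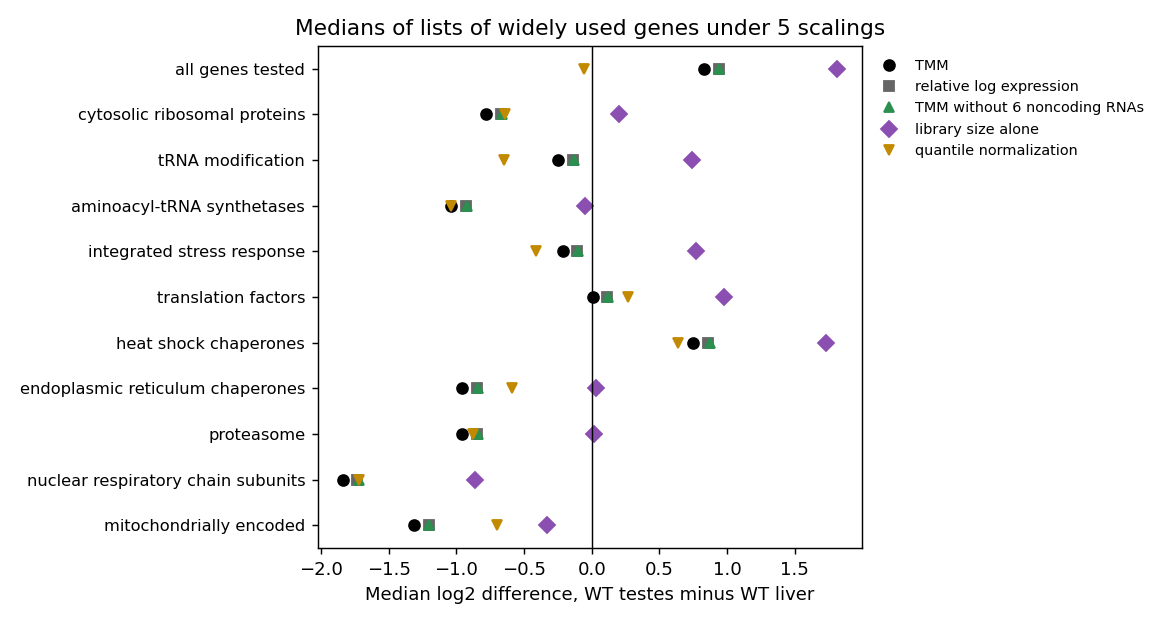
Median log2 difference (WT testes minus WT liver) of all genes and of 10 lists of widely used genes under 5 scalings, with a symbol for each scaling. Library size alone (diamonds) shifts every median to the right, and with it the ribosomal protein, tRNA modification, stress response, endoplasmic reticulum and proteasome lists change side.

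Long noncoding genes and pseudogenes were over 2-fold higher in testes at shares above the 44.9% of all genes tested. Of 15486 tested protein-coding genes 38.9% were over 2-fold higher in testes and 28.5% in liver, while of 3161 long noncoding genes 70.2% were higher in testes and 9.3% in liver, with a median of 5.28. Pseudogenes were alike at 66.4% and 14.9% of 752. Those 3161 are the part of 13374 long noncoding genes in the table that passed the filter on low values, and a gene at 1 CPM in all libraries of 1 tissue passed it whatever its level in the other, so these shares and the median describe the genes that passed and not their classes. Counting only genes with at least 1 CPM in all 4 libraries of a tissue and at most 3 counts in each library of the other, 4264 were found in testes (2244 protein-coding, 1643 long noncoding, 377 pseudogenes) and 259 in liver (189 protein-coding). On the X chromosome, 51.3% of 626 tested protein-coding genes were over 2-fold higher in testes and 24.6% in liver, against 38.3% and 28.7% of 14808 autosomal genes. These shares too describe only genes that passed the filter. The X share higher in testes stayed above the autosomal share under each scaling tried, and after quantile normalization was 34.5% against 30.4%, with 35.5% of X genes and 36% of autosomal genes then higher in liver. With a filter of 5 CPM in 4 libraries X genes were above autosomal genes in both directions, at 44.4% against 37.8% higher in testes and 32.6% against 29.2% higher in liver. No test of these differences was made. X-linked genes of testes, chosen by their level, included Akap4, the scaffold of the sperm tail sheath, at 1046 ± 55.5 CPM (SD, n = 4) and at least 7506-fold higher, and Tsga8 at 114 ± 4.74 CPM with no count in liver. On the Y chromosome, 35 of 39 tested protein-coding genes were over 2-fold higher in testes. Most belong to families of near-identical copies whose reads cannot be placed with certainty. Zfy2, a zinc finger gene of the spermatid, stood at 7.52 ± 0.848 CPM and Usp9y at 11.6 ± 0.607, both without a count in liver. The 2 Y genes over 2-fold higher in liver, named after their values were seen, were Ddx3y at 29.7 to 36.2 CPM against 8.45 to 10.8 and the histone demethylase Kdm5d at 21.2 to 25.8 against 4.99 to 5.86.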

How the data were processed

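Total RNA was extracted with Trizol, depleted of ribosomal RNA and sequenced in pairs on an Illumina NovaSeq. The authors aligned reads with STAR to mm10 and deposited RSEM expected counts per gene on GENCODE M21, as a table of raw values in which 13% to 16.3% of nonzero values are not whole. Tool versions and the strand setting were not given in the sources used here. Expected counts were rounded for edgeR and DESeq2.

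Columns were matched to samples by the library names in the labels. Genes with a CPM of at least 1 in at least 4 of the 8 libraries were kept, scaled by TMM (edgeR 4.0.16) and fitted with limma-voom (limma 3.58.1, R 4.3.3), with Benjamini-Hochberg adjustment at 0.05 and a second test against 2-fold. Knockout libraries did not enter. Other scalings, filters, edgeR's quasi-likelihood test, DESeq2 1.42.0, a replicate block and leaving out each library were tried as alternatives. In simulated counts (17546 genes), 100 genes were changed by a log2 of 1 and 100 by 2, and all others had equal means in both tissues. There limma-voom recovered 92% of the former and 99% of the latter, with 4.5% false calls. Most real genes differed between the tissues, and the simulation does not cover that case or the choice of scaling.

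Named genes were Thumpd1 and Nat10, the 8 most abundant protein-coding genes past the 2-fold test in each tissue, the first 4 of each list, up to 3 members of a list past it against the majority, both genes of each pair, and the 5 largest differences in each direction among genes with at least 3 counts in every library. The comparison, lists and pairs were chosen with earlier results of these data known. Where a symbol occurs more than once (108 symbols), the lowest Ensembl identifier was used. C5, Iho1 and Ahsp were not matched. Some single genes and pairs that this rule names are not reported here, while list counts and medians include their members. Depth was 26992675 to 32251737 counts per library, and bounds against 3 counts cover counting error only. Python 3.11.15, numpy 2.4.6, pandas 2.3.3 and matplotlib 3.10.9 were used for summaries and figures.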

Additional observations from a re-analysis of the deposited data

Results flagged for a closer look

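In 496 groups of 4 libraries, the library farthest from the others was set against Dixon's critical value for a gap relative to the range, and 46 groups passed it. Chance flags about 1 in 20 groups. Testes replicates 1 and 2 and liver replicate 4 gave 14, 11 and 12 of them. No cause was tested.

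Testes replicate 1 stood apart from the other 3 testes libraries, in TMM-scaled CPM, in the summed levels of the stress response list (837 against 856 to 860), the translation factors (8912 against 9275 to 9341) and the histone variants (1683 against 1837 to 1860), and had 19136 genes at 1 CPM against 18993 to 19009. It was lower for Atp8b3 at 1578, H1fnt at 250, Hist1h2ba at 177 and Pkm at 211. It was higher for Zbtb16 at 7.82, Cyp17a1 at 182, Iars at 33.5, Rbmx at 8.04, Taf7 at 15.6 and Cox7b2 at 43.6.

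Testes replicate 2 was highest in summed complement genes (134 against 123 to 124) and epididymis genes (182 against 106 to 110). It was also highest for Acta2 at 40.3, Krt19 at 1.1, Rpl10 at 24.3, Rps2 at 119, Hspa8 at 178, P4hb at 56.3, Pygb at 15.2 and Acacb at 10.9, and lowest for Psme4 at 502. Testes replicate 3 stood apart for Serpinc1 at 3.12, and testes replicate 4 for Kit at 26.8 and Spcs1 at 133.

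Liver replicate 4 held 9.33% of counts in Gm42418 against 0.834% to 1.16%, a synthetase sum of 10255 CPM against 1941 to 2262 and a complement sum of 27230 against 29144 to 29530. It was lowest for Alb at 48058, Serpina1d at 2746, Aars at 318, Eif4g3 at 88.8, Psmb8 at 13.9, Psmf1 at 35, Eno1 at 646 and Tkt at 244, and highest for Star at 3.69. Liver replicate 1 was highest in summed round spermatid genes (29.2 against 22.3 to 23.2) and Adgre1 at 17.4. Liver replicate 2 was lowest for Tbp at 7.74. Liver replicate 3 was lowest for Fdx1 at 82.3 and highest for Psma8 at 1.28 and Pygl at 624.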

How the results depend on the processing

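Counts of called genes stayed within 1.5 times of those reported except that, with no filter, 17550 genes were higher in testes and 13421 over 2-fold, and with library size alone 3102 were over 2-fold higher in liver. Leaving out each library, with the filter then at 1 CPM in at least 3 libraries (19665 to 19982 genes tested against 19485), gave 11012 to 11458 genes higher in testes, 7033 to 7205 higher in liver, and 8730 to 9151 and 4767 to 4906 over 2-fold. The mitochondrially encoded share differed by -0.362 to -0.24 percentage points when a library was left out, with an exact permutation p of 0.0857 without testes replicate 2, 3 or 4 and 0.0571 without liver replicate 4. A filter on TMM-scaled CPM, chosen after seeing the data, left 18819 genes, 10474 higher in testes and 7120 in liver.

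With library size alone the sign turned for Sqle (0.69), Rplp0 (0.89), Lars (0.52), Iars (0.24), Eif2ak4 (0.17), Pdia3 (0.60), Ndufs1 (0.07), mt-Nd1 (0.48), Ldha (0.35), Cct6a (0.81), Cetn2 (0.27) and Pck2 (0.72), and for the medians of the ribosomal protein (0.20), tRNA modification (0.74), stress response (0.77), endoplasmic reticulum (0.03) and proteasome (0.02) lists. After quantile normalization it turned for Amh (-2.34), Cnn1 (-0.24), Lep (-0.97), Rplp0 (0.64), Eef1a1 (0.27), mt-Co1 (1.14), mt-Nd1 (0.43), Clu (0.03), Ldha (0.35), G6pdx (-0.53) and the fat list (-1.49). With 5 CPM in 4 libraries the fat list was at -1.60 and the stress response list at 0.20, and with no filter the pancreas list was at 0.34. Medians that moved by over 1.5 times with no change of sign were, by lowest and highest value over scalings and tools, those of spermatogonia (1.48 and 4.53), Sertoli (2.16 and 6.24), peritubular (1.07 and 3.58), macrophage (-5.34 and -2.52), stellate (-3.95 and -1.86), bile duct (-2.36 and -0.02), lymphocyte (-4.77 and -0.46), epididymis (2.00 and 8.34), synthetase (-1.04 and -0.05), translation factor (0.0066 and 0.98), heat shock (0.64 and 1.73), respiratory chain (-1.84 and -0.86) and mitochondrially encoded (-1.31 and -0.33) genes. Leaving out 1 library moved the medians of 17 lists by more than the replicate spread, in 39 refits. Of these moves, those over 1.5 times were of the lymphocyte list, from -1.44 to between -2.80 and -2.67 without testes replicate 1, 2, 3 or 4 or liver replicate 1, and of the stress response list, from -0.21 to -0.12 without liver replicate 2. The cause was not tested.

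In the deviations of genes from the mean of their tissue, same-numbered libraries of the tissues correlated at -0.0333, 0.0269, -0.0163 and -0.0123. Values this small cannot decide whether same-numbered libraries came from the same animal, as unlike organs need not share such deviations. With a replicate block, 10939 genes were higher in testes and 7089 in liver, 8706 and 4815 over 2-fold, and the calls of all 245 named genes were the same. The 420 recomputed pair ratios kept direction and call. Of 4643 recomputed values for named genes, 22 changed sign with a call in the main fit or the refit. Under other settings 19 values (13 genes) lost their call and 20 values (5 genes) gained one. With a library left out, 5 values (3 genes) gained a call.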
